A study of Mus musculus with 2 samples.

Results

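The genes described here are the mouse MHC genes and their close partners, 52 of 55536 mouse genes in the tables. They were taken by name: 45 genes whose symbol starts with H2-, and 7 others, namely the light chain gene B2m, the invariant chain gene Cd74, the peptide loading genes Tap1, Tap2 and Tapbp, and the regulators Ciita and Nlrc5. By the annotation 41 are protein-coding and 11 are pseudogenes. On the mouse genome mm10 with the GENCODE M21 annotation, 48 lie on chromosome 17, and B2m, Ciita, Cd74 and Nlrc5 lie on chromosomes 2, 16, 18 and 8. The study holds total RNA-seq of hippocampus. The mice were female, 8 to 10 months old, with the strain given as 5xFAD/CAST and, in the sample descriptions, as 5xFAD X Cast, and the labels name no treatment. For each library 300 ng of RNA was used, and ERCC spike-in RNA was added. 5xFAD is a transgenic Alzheimer model in which human genes with familial mutations, APP among them, are driven by the neuronal Thy1 promoter, and CAST is an inbred strain derived from wild mice. There is 1 group of 2 replicates, and no animals without the transgenes were analysed here. The replicates have separate biosample records but 1 donor record, so an SD here is the spread of 2 libraries, which may be technical.

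Class I molecules pair a heavy chain with beta-2-microglobulin and carry peptides from the cytosol, which the TAP transporter brings into the endoplasmic reticulum, to the surface of most cells. Class II molecules pair an alpha with a beta chain, travel with the invariant chain, and exchange its fragment for peptides from endosomes with the help of H2-DM, mainly in professional antigen-presenting cells. In brain tissue microglia, border macrophages and endothelial cells are known sources of class I RNA, and neurons are known to make it too. Class II RNA is known mainly from macrophages, dendritic cells and a part of the microglia.

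Short promoter elements are known to be shared by these genes. Class II promoters carry an X element, bound by the RFX complex, and a Y element, an inverted CCAAT box bound by NF-Y, through which CIITA acts. Class I promoters carry an NF-kappaB site and an interferon-response element besides a similar module. RefSeq promoters on GRCm38.p6 were matched to 35 of the 52 genes by symbol, with 38 windows, and the 250 bases before each start were searched for 5 motifs on both strands. A pair of class II genes, the classical class I genes and the light chain gene, on which the results below turn, are printed 5′ to 3′ on the gene's strand, with all matches in capitals. The windows are chr17:34287824-34288073 on the minus strand for H2-Aa and chr17:34305617-34305866 on the plus strand for H2-Eb1. They are chr17:34000334-34000583 on the minus strand for H2-K1, chr17:35262844-35263093 on the plus strand for H2-D1 and chr2:122147437-122147686 on the plus strand for B2m. Where a gene had several windows, that of the most downstream start is printed, and distances count from that start. The H2-D1 window lies inside the GENCODE span of the gene, 35262730 to 35267499, so its distances depend on the start used.
H2-Aa: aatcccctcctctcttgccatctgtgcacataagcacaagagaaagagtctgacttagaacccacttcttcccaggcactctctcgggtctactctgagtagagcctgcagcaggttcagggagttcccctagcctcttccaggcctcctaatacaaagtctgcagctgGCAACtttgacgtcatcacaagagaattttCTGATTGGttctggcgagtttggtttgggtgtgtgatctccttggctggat
H2-Eb1: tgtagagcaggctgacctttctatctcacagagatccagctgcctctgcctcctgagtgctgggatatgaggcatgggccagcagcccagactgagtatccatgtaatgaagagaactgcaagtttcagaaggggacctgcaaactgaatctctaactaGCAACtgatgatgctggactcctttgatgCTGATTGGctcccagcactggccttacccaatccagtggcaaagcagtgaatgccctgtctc
H2-K1: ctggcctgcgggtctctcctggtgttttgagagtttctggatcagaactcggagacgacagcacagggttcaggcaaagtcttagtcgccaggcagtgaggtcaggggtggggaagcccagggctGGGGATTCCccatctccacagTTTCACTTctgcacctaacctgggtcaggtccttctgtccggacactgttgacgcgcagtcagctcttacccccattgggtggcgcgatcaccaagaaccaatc
H2-D1: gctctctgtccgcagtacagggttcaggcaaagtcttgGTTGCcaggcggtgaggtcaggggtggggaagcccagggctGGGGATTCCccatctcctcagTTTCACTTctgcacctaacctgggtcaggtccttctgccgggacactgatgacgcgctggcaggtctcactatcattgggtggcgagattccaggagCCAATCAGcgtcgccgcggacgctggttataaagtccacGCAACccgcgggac
B2m: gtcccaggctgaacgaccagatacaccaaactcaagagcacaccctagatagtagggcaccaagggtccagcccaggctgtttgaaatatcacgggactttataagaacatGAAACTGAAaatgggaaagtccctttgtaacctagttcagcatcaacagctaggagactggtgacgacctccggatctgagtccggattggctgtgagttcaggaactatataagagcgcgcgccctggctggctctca
In H2-Aa the X core GCAAC begins 81 bases and the Y form CTGATTGG 51 bases before the start, and in H2-Eb1 they begin 91 and 62 bases before it. H2-K1 and H2-D1 share the kappaB core GGGGATTCC, 125 and 171 bases before the start, followed by the interferon-response core AAGTGAAA read on the other strand, at 104 and 150 bases. H2-D1 also holds CTGATTGG on the other strand, read as CCAATCAG, 53 bases before its start. The H2-K1 window ends in CCAATC, the first bases of that form, so a match crossing its end could not be found. B2m holds the interferon-response repeat GAAANNGAA, which can overlap AAGTGAAA, at 139 bases. CTGATTGG was found in 50% of the 38 member windows against 3.83% of all 32851 RefSeq windows, and AAGTGAAA in 26.3% against 1.36%. The 18 genes with CTGATTGG included H2-M1, H2-M9, H2-M11 and H2-M10 genes, which had 0 counts in both libraries, and H2-Eb2, with 1 and 0. H2-Ab1 and Cd74 were not among them, though only 35 of the 52 genes had a window. GGGGATTCC was found in 13.2% against 0.213%, all of it in H2-D1, H2-K1, H2-Q6 and H2-Q7. GCAAC, a short motif, was found in 28.9% against 29.9%, and GAAANNGAA in 7.89% against 7.13%. Close copies share promoter sequence, so these windows are not independent, and a match describes letters, not binding. The windows are of the C57BL/6J reference, and CAST sequence was not used here.

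The libraries of replicates 1 and 2 summed to 27816845 and 32316737 expected counts. The 52 genes took 0.0555% of the mouse gene counts in replicate 1 and 0.0446% in replicate 2, or 15375 and 14354 counts. Levels below are TPM, a transcript abundance scaled for length and library, from the deposited gene table, given for replicate 1 and then replicate 2, with the mean ± SD over n = 2. Where a gene had no count, up to 3 counts remain possible, which is 0.108 and 0.0933 CPM (counts scaled to library size), for counting error only. The 5 neuron genes used as a check of the tissue were all detected, with sums of 1855 and 2061 TPM, led by Snap25 at 833 and 922 TPM. Summed levels were 90.3 and 86.7 TPM over 6 endothelial genes, 1261 and 1249 TPM over 5 astrocyte genes and 100.6 and 98.7 TPM over 6 fibroblast genes. The genes of the fibroblast list did not all share a direction. In the log2 ratio of replicate 2 over replicate 1 defined below, 3 of these 6 lay below 0. The values ran from -0.37 for Lum to 0.47 for Dcn. Choroid plexus sums differed more, with values given beside the class II genes. In bulk tissue, fewer cells of a type and less RNA per cell cannot be told apart.

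A gene was called detected where its TPM reached 1 in each library. This held for 28 of the 52 genes, or 53.8%, against 27.7% of all mouse genes. A further 14 had 0 counts in both. The mean level was at least 10 TPM for 11 genes: B2m, H2-K1, H2-D1, Cd74, Tapbp, H2-Ke6, H2-Aa, H2-DMa, H2-T23, H2-Ab1 and H2-Eb1, in that order. B2m stood alone at the top, and no library of another member overlapped it. The next 3, H2-K1, H2-D1 and Cd74, overlapped one another between libraries, as did H2-Aa, H2-DMa, H2-T23 and H2-Ab1.

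**Figure D1:**
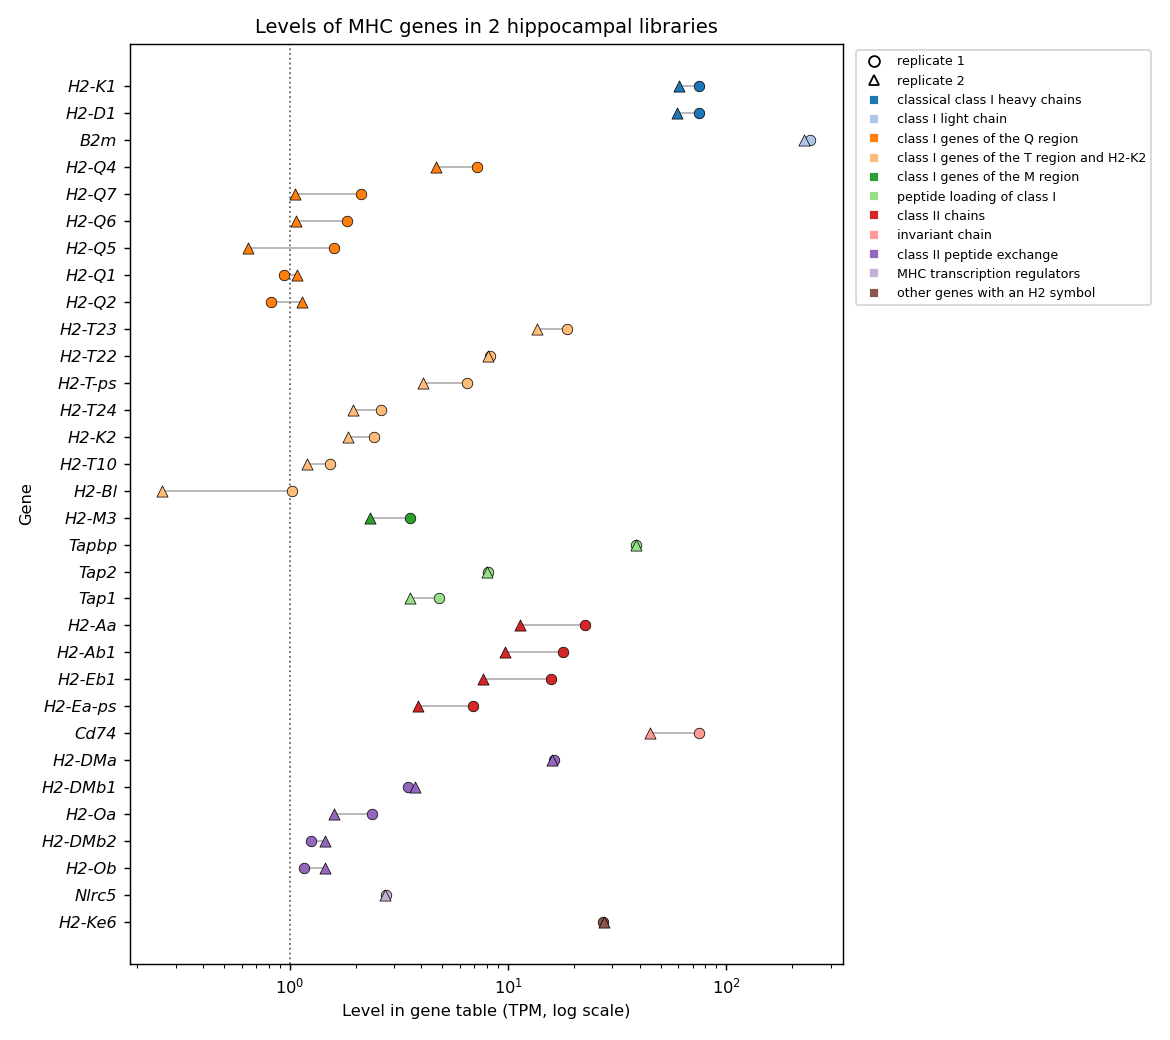
Level in TPM (log axis) of the 32 members with at least 1 TPM in either library, in replicate 1 (circles) and replicate 2 (triangles), coloured by role; the dotted line marks 1 TPM. B2m lies highest, at 242 and 227 TPM, and the class II chain genes show wide gaps between circle and triangle while Tapbp and H2-DMa show almost none.

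The map order on chromosome 17 placed high and silent genes side by side. The stretch from H2-Pb to H2-Ea-ps (34073762 to 34344645), which holds the class II genes together with Tap1 and Tap2, carried 14 members, of which 11 were detected. From H2-D1 to H2-Q10 (35262730 to 35474563) 4 of 9 were detected, and H2-D1 gave most of the summed 89.9 and 69.1 TPM there. From H2-T24 to H2-T3 (36005695 to 36190287) 5 of 7 were detected. At the far end, from H2-M10.2 to H2-M2 (36284227 to 37483552), 1 of 14 was.

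**Figure D2:**
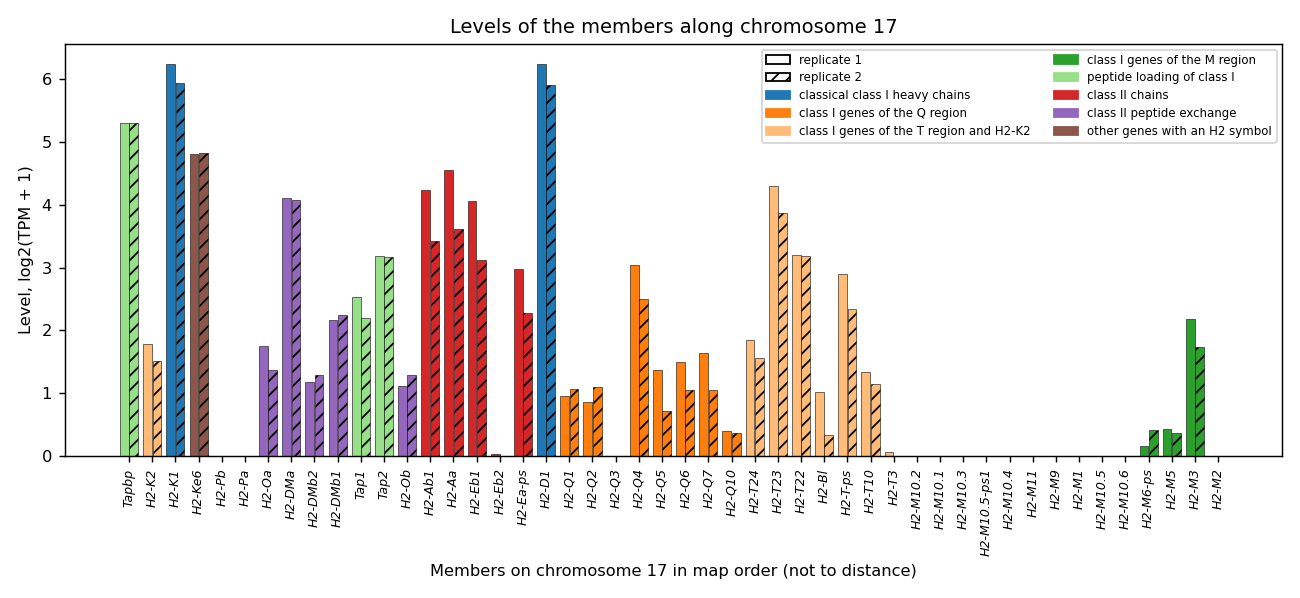
Level as log2(TPM + 1) of the 48 members on chromosome 17 in map order (equal spacing, not distance), with open bars for replicate 1 and hatched bars for replicate 2, coloured by role. H2-K1 and H2-D1 stand highest on either side of the class II genes, and the M region at the right is listed at 0 for 11 of 14 genes.

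Among the class I genes, the classical heavy chains led. H2-K1, which with H2-D1 presents peptides to cytotoxic T cells, stood at 74.9 and 60.7 TPM, a mean of 67.8 ± 10.0 (chromosome 17, 33996017 to 34000347, minus strand). H2-D1 stood at 75.1 and 59.2 TPM, a mean of 67.2 ± 11.2 (35262730 to 35267499, plus strand). Both were lower in replicate 2, and within a library they were nearly equal in gene TPM: that of H2-D1 was 1.00 and 0.976 times that of H2-K1. In the second set of deposited tables, which has the layout of the program kallisto, that ratio was 0.742 and 0.831. In expected counts the 2 genes were not equal, with 2606 and 2410 for H2-D1 and 1297 and 1280 for H2-K1. Coding transcripts held 92.7% and 95.5% of the TPM of H2-D1, but 45.3% and 53.1% of that of H2-K1. Together the pair held 71.5% and 73.2% of the 210 and 164 TPM summed over 32 class I heavy chain genes.

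B2m, the light chain that every class I heavy chain needs to reach the surface, was the most abundant member and ranked 299th of all mouse genes by mean TPM. It stood at 242 and 227 TPM, a mean of 234.5 ± 10.8 (chromosome 2, 122147686 to 122153083, plus strand), and took 23.5% and 26.9% of all counts on the 52 genes. Its level was 1.61 and 1.89 times the summed TPM of H2-K1 and H2-D1, and 1.15 and 1.39 times that of all 32 class I heavy chain genes. The light chain thus exceeded the heavy chains in both libraries, whereas in the kallisto-layout tables its ratio to all heavy chains was 1.00 and 1.25.

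The Q region, a block of class I genes near H2-D1, was expressed at low levels, 14.8 and 9.93 TPM in sum over 8 genes. H2-Q4 was the highest, at 7.19 and 4.66 TPM. H2-Q7, which with its neighbours encodes the membrane-linked molecule Qa-2, stood at 2.12 and 1.06 TPM and H2-Q6 at 1.83 and 1.07 TPM. These 3 genes, the only ones of the region detected in both libraries, were all lower in replicate 2. H2-Q5 stood at 1.59 and 0.64 TPM, H2-Q1 at 0.94 and 1.08 TPM and H2-Q2 at 0.82 and 1.14 TPM, so each lay on both sides of 1 TPM. H2-Q10, whose product is secreted by liver, was at 0.32 and 0.28 TPM, and H2-Q3 had 0 counts. Several of these genes are close copies of one another, and their single levels are uncertain, as described with the shared sequence.

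In the T region H2-T23 was the highest, at 18.6 and 13.6 TPM, a mean of 16.1 ± 3.54 (36029773 to 36032855, minus strand). It encodes Qa-1, which shows leader peptides of class I chains to NKG2 receptors of natural killer and T cells. H2-T22, a ligand of some gamma-delta T cells, stood at 8.23 and 8.08 TPM, and its close relative H2-T10 at 1.53 and 1.20 TPM. The pseudogene H2-T-ps stood at 6.46 and 4.07 TPM and H2-T24 at 2.61 and 1.95 TPM. H2-K2, a transcribed pseudogene beside H2-K1, stood at 2.42 and 1.85 TPM. H2-Bl was at 1.02 and 0.26 TPM from 9.89 and 5.68 expected counts, too few to order the libraries. The exons of H2-T22 overlap those of A930015D03Rik, which had 39 and 76 counts, on the opposite strand over 1003 bases, or 29.4%. Of the detected genes of this group H2-T22 differed least between the libraries, by 0.15 TPM. All 6 had a lower TPM in replicate 2, but the counting intervals described below spanned 0 for H2-T22, H2-T24, H2-K2 and H2-T10.

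The M region was almost silent. H2-M3, which presents peptides with a formylated methionine as made by bacteria and mitochondria, stood at 3.54 and 2.33 TPM (37270220 to 37274484, plus strand) and was the only one of 14 genes detected. H2-M5 followed at 0.35 and 0.29 TPM, and H2-M6-ps had 2 and 7 counts. The other 11 had 0 counts in both libraries, among them all H2-M10 genes and H2-M1, families known from vomeronasal neurons.

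Of the peptide loading genes, Tapbp and Tap2 differed little between the libraries, and Tap1 was lower in replicate 2. Tapbp, which encodes tapasin, the bridge between class I molecules and the transporter, stood at 38.39 and 38.41 TPM (33915899 to 33929292, plus strand). Tap2 stood at 8.07 and 7.96 TPM and Tap1 at 4.80 and 3.56 TPM. The transporter is built from 1 chain of each, and Tap2 exceeded Tap1 by 1.68 and 2.24 times in TPM, or by 2.40 and 2.89 times in the kallisto-layout tables. The 9 genes of a class I loading list, which includes these and B2m, were all detected. Its other leading members were the chaperones Canx, at 194 and 203 TPM, and Calr, at 197.0 and 197.5 TPM. All 6 genes of a list for the immunoproteasome, the proteasome form that cuts peptides for class I, were detected too. The list also holds assembly and activator genes that are not particular to this form. Of these, Pomp led at 61.4 and 65.4 TPM, followed by Psme2 at 45.2 and 32.6 TPM. The catalytic subunit Psmb10 stood at 36.4 and 39.6 TPM. The other catalytic subunits, Psmb8 and Psmb9, stood at 11.4 and 8.27 TPM and at 3.21 and 3.94 TPM.

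The class II chains were lower in level than classical class I and stood further apart between the libraries. H2-Aa, the alpha chain of I-A, stood at 22.4 and 11.3 TPM, a mean of 16.8 ± 7.85 (34282744 to 34287823, minus strand). Its partner H2-Ab1 stood at 17.8 and 9.72 TPM, a mean of 13.8 ± 5.71 (34257689 to 34269419, plus strand). H2-Eb1, the beta chain of I-E, stood at 15.7 and 7.66 TPM, a mean of 11.7 ± 5.65 (34305867 to 34316674, plus strand). Every one of these was lower in replicate 2, while their proportions were similar: the TPM of H2-Ab1 was 0.795 and 0.861 times, and that of H2-Eb1 0.699 and 0.678 times, that of H2-Aa.

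H2-Ea-ps, the alpha chain gene of I-E, stood at 6.89 and 3.86 TPM from 116 and 81 expected counts (34341959 to 34344645, minus strand). The annotation calls it a polymorphic pseudogene. In the H2b haplotype of C57BL/6 mice this gene is known to lack its promoter by a deletion and to be silent, and other haplotypes express it. Its TPM was 0.440 and 0.504 times that of H2-Eb1. From which allele the reads came was not tested, since the tables carry no allele. H2-Eb2 had 1 and 0 counts.

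Cd74, the invariant chain that guides class II molecules and blocks their groove, was the most abundant gene of the class II pathway among the members. It stood at 75.0 and 44.7 TPM, a mean of 59.9 ± 21.5 (chromosome 18, 60803848 to 60812652, plus strand), and was lower in replicate 2 like the chains. Its TPM was 3.35 and 3.96 times that of H2-Aa.

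The genes of peptide exchange did not share that difference. H2-DMa, a chain of the exchange catalyst H2-DM, stood at 16.3 and 15.9 TPM, a mean of 16.1 ± 0.219 (34119541 to 34139101, plus strand). Its partners H2-DMb1 and H2-DMb2 stood at 3.49 and 3.76 TPM and at 1.25 and 1.45 TPM. Of the chains of H2-O, which restrains H2-DM, H2-Oa stood at 2.37 and 1.59 TPM and H2-Ob at 1.16 and 1.45 TPM. By scaled counts H2-Oa alone of these 5 was lower in replicate 2, though on kallisto-layout counts H2-DMa, H2-DMb2 and H2-Ob were too, with log2 ratios of -0.077, -0.27 and -0.04. In TPM H2-DMa was 0.726 times H2-Aa in replicate 1 and 1.41 times in replicate 2, so the order of this pair differed between the libraries. The exons of H2-DMa overlap those of Brd2 on the opposite strand over 360 bases, and Brd2 had 5047 and 5857 counts. A directional kit is named in the labels, but whether strand was used in counting is not given in the sources used here. H2-T22 has this limit too, as do Tap1, which overlaps Psmb9 over 212 bases, and Ciita, which overlaps Dexi over 329.

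Of the regulators, Nlrc5, the class I transactivator, stood at 2.75 and 2.74 TPM (chromosome 8, 94434356 to 94527272, plus strand). Its counts were 141 and 115, a log2 ratio of -0.48 (-0.85 to -0.12) after scaling, and the TPM came out equal because the mean transcript length assigned to it was 2713 bases in replicate 1 and 1975 in replicate 2. In the kallisto-layout tables its TPM was 1.52 and 2.94, higher in replicate 2, from 170 and 144 counts. Ciita, the class II transactivator, was at 0.28 and 0.23 TPM from 22 and 12 counts (chromosome 16, 10480059 to 10528418, plus strand), while Dexi, on the opposite strand, had 597 and 689. Of 13 genes of MHC transcription, 12 were detected and Ciita was not. The highest were the NF-Y subunit genes Nfyb, at 27.2 and 28.6 TPM, and Nfyc, at 18.6 and 20.9 TPM, and the interferon regulatory factor Irf2 at 30.3 and 24.3 TPM. The RFX genes Rfx5, Rfxap and Rfxank stood at 12.03 and 10.88, at 18.4 and 20.0, and at 7.33 and 6.34 TPM. All 9 receptor and signalling genes of an interferon list were detected, led by Jak1 at 51.3 and 55.0 TPM and by the receptor genes Ifngr2, at 19.9 and 23.2 TPM, and Ifnar2, at 21.51 and 21.45 TPM. The 2 ligand genes in that list, Ifng and Ifnb1, had 0 counts in both libraries.

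H2-Ke6 entered by its symbol alone. It encodes a hydroxysteroid dehydrogenase and stood at 27.1 and 27.4 TPM (34026033 to 34028060, minus strand). The pseudogenes H2-Pa and H2-Pb had 0 counts.

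Differences between the libraries were measured as the log2 ratio of scaled expected counts, replicate 2 over replicate 1, for 34 members with a mean count of at least 10. Each has a 95% exact interval for counting error alone, and it compares these 2 libraries, not conditions. The median ratio was -0.45 over these members and 0.01 over the 18897 genes past the same filter. It was below 0 for 26 of 34 members, or 76.5%, against 47.2% of all genes. A 2-fold lower level in replicate 2 was reached by 2 of 34 members, H2-Eb1 and H2-Q5, against 1.85% of all genes, and a 2-fold higher level by 0, against 0.788%. At 1.5-fold 13 of 34, or 38.2%, were lower, against 5.82% of all genes, and 0 were higher, against 2.58%. The 1.5-fold level was added after seeing the data. Among genes with at least 100 counts, the median was -0.30 for 17 members and 0.03 for all 13095. The 5 neuron genes all had ratios above 0, with a median of 0.13, and the 5 astrocyte genes all had ratios below 0, with a median of -0.08. The part of such shifts in the members' ratios was not tested.

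By role, the class II chains lay lowest of the groups. Their summed counts gave -0.95, with an interval of -1.09 to -0.82, from 1247 and 735 counts. H2-Eb1 lay at -1.07 (-1.37 to -0.80), H2-Aa at -0.98 (-1.21 to -0.76), H2-Ab1 at -0.90 (-1.14 to -0.66) and H2-Ea-ps at -0.70 (-1.14 to -0.29). Cd74 lay at -0.75 (-0.86 to -0.65). All 5 intervals lay below 0 and included or ended above a 2-fold difference, so none was wholly past it. The 5 exchange genes summed to 0.00 (-0.17 to 0.18), an interval that did not overlap that of the chains. H2-DMa, with the strand limit given above, held 316 and 362 of their 527 and 604 counts. H2-Oa by itself lay at -0.52 (-1.22 to 0.12), which overlaps the interval of the chains. Over all genes with at least 100 counts the 1st percentile of the ratio was -0.53 and the 5th -0.28.

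Among class I genes, H2-D1 lay at -0.30 (-0.39 to -0.22), H2-K1 at -0.21 (-0.32 to -0.10) and B2m at -0.10 (-0.16 to -0.03). These intervals lay below 0, though with spike-in scaling that of B2m spanned it (-0.10 to 0.03). H2-T23 lay at -0.43 (-0.62 to -0.25), H2-Q4 at -0.58 (-0.86 to -0.31), H2-M3 at -0.59 (-1.07 to -0.14) and H2-T-ps at -0.66 (-1.09 to -0.27). H2-Q5 had the lowest value, -1.26 (-2.40 to -0.44), from 32.4 and 13.8 counts, but on kallisto-layout counts it was -0.77 and not past 2-fold. Tapbp was at 0.00 (-0.11 to 0.11), Tap2 at -0.10 and Tap1 at -0.29 (-0.55 to -0.02). In all, 18 of the 34 intervals lay below 0, 16 spanned it and 0 lay above it. With spike-in scaling 15 lay below 0, without B2m, H2-Q10 and Tap1, and with library size alone 19 did, with Ciita added. The share of all genes with such intervals was not computed, so these counts have no background beside them. Counting intervals are narrow for genes with many counts. That of Slc1a2 (-0.03 to -0.01) also lay below 0, and that of Snap25 (0.10 to 0.15) lay above it. The summed TPM of H2-K1 and H2-D1 was 2.69 times that of H2-Aa, H2-Ab1 and H2-Eb1 in replicate 1 and 4.18 times in replicate 2.

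**Figure D3:**
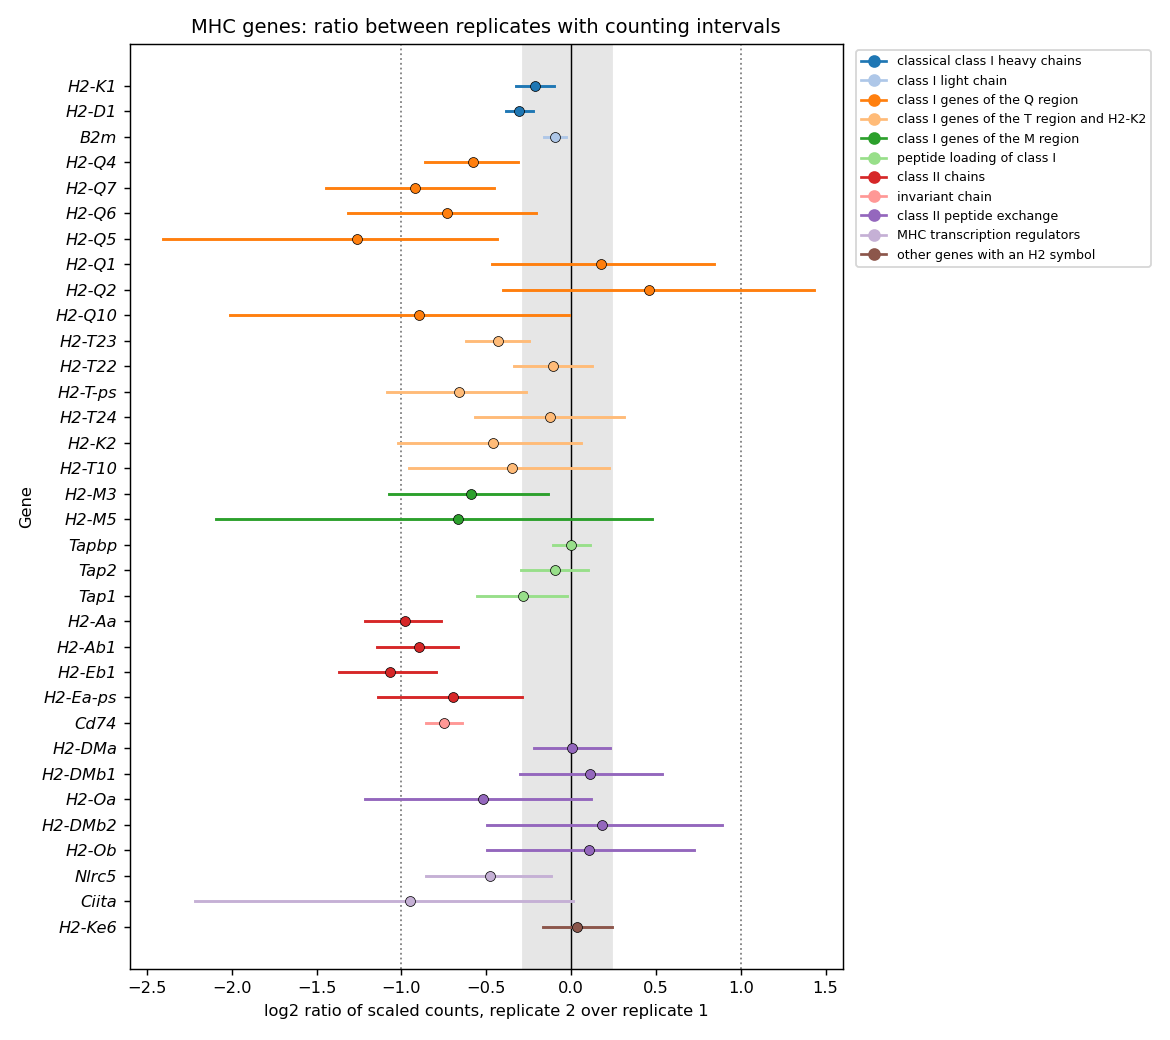
Log2 ratio of scaled counts, replicate 2 over replicate 1, for 34 members with a mean count of at least 10, with 95% counting intervals; the grey band spans the 5th to 95th percentile of all genes with at least 100 counts (-0.28 to 0.24), and dotted lines mark 2-fold. The class II chains and Cd74 lie left of the band, between -1.07 and -0.70, and H2-DMa and Tapbp lie at 0.00.

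Markers of cells that could carry class II RNA were set beside this difference. Microglia genes were all detected, 6 of 6, with a summed level of 287.5 and 281.5 TPM and a median ratio of -0.12. Csf1r, Cx3cr1 and P2ry12 led them, and Aif1 had the largest ratio, -0.42. Of the 6 ratios 5 lay below 0, and that of P2ry12 lay above it, at 0.24 (0.13 to 0.35). Of 8 border macrophage genes 5 were detected, with sums of 18.4 and 16.1 TPM and a median ratio of -0.24. Stab1 stood at 9.71 and 7.76 TPM, F13a1 at 2.00 and 1.40 TPM and Mrc1 at 1.86 and 1.72 TPM. By scaled counts Stab1 did not differ, at 0.01 (-0.14 to 0.16) from 657 and 756 counts. Every counting interval of the border macrophage genes spanned 0. The median of the class II chains was -0.94. The part of microglia and border macrophages in the class II difference was not tested.

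Of 7 dendritic cell genes 2 were detected. The list summed to 8.03 and 10.0 TPM, most of it from Zbtb46 and Flt3. The higher sum in replicate 2 thus does not speak for the whole list. Zbtb46 and Flt3 led at 3.39 and 4.57 TPM and at 3.58 and 3.65 TPM, and Batf3 stood at 0.82 and 1.72 TPM, from 10 and 26 counts. Cd209a had 5 and 1 counts and Xcr1 3 and 1, fewer in replicate 2 but too few to order the libraries. The defining genes Clec9a and Ccr7 had 0 counts in both libraries. B cell genes summed to 0.63 and 0.32 TPM over 5 genes and none was detected. T and natural killer cell genes summed to 1.70 and 0.57 TPM over 7 genes with none detected and Nkg7 at 0, and Cd8a had 13 and 1 counts. Monocyte and neutrophil genes summed to 1.25 and 0.79 TPM over 5 genes, none detected. Choroid plexus genes were lower in replicate 2 in 7 of 7 cases, 4 of them by over 2-fold, with sums of 27.8 and 11.99 TPM and a median ratio of -1.55. Kl led at 7.01 and 4.74 TPM, then Sostdc1 at 4.03 and 2.28 TPM and Kcnj13 at 4.21 and 2.02 TPM, and Clic6 had the largest ratio among its genes with at least 100 counts, -1.55. The choroid plexus and its stroma are known to hold macrophages rich in class II. The part of these cells in the class II difference was not tested.

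Many class I genes are close copies, so the reads of 1 gene can match another. The authors' tables give the posterior SD of each count, the spread left by the counting model after reads were shared out. It was above 0 in both libraries for 17 of 34 members, or 50%, against 17.8% of all genes. The share of each gene's 101-base windows (the read length, from the deposited lengths) that also occurs in another gene was counted on the GENCODE M21 transcripts. The 16 members with no shared window were the same 16 that had a posterior SD of 0 in both libraries. B2m, Cd74, H2-Aa, H2-Ab1, H2-Eb1, H2-Ea-ps, H2-DMa, Tap1 and Tap2 were among them. Of 18 with shared windows, 17 had an SD above 0 in both, and Tapbp had it in replicate 1 alone. Across the 34 genes, which share libraries and sequence, the share of windows and the posterior SD had a Spearman rho of 0.93.

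The posterior SD was small for the abundant genes, at 0.276% and 0.282% of the count for H2-D1 and 0.164% and 0.135% for H2-K1. It was largest for H2-Q1, at 14.1% and 10.95%, and H2-Q10, at 10.59% and 12.8%. H2-Q5 stood at 6.29% and 7.62%, and 13.7% of its windows occur elsewhere, mostly in H2-Q7. H2-DMb1 and H2-DMb2 share 176 windows with each other and no other gene, and their posterior SDs were equal, 3.08 counts in replicate 1 and 3.73 in replicate 2. Their summed counts were whole, 122 and 153, so that their sum is firmer than either level. H2-Ke6 shares 61.4% of its windows with Gm20427, which overlaps 1419 of its exon bases on the same strand.

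**Figure D4:**
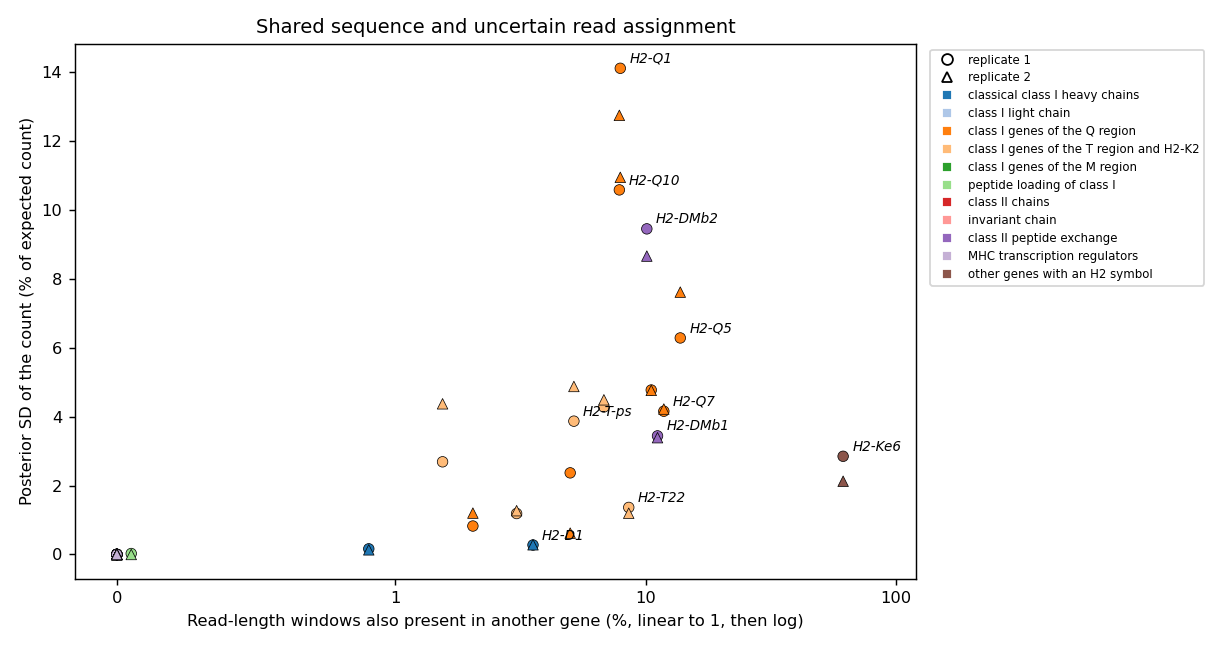
Posterior SD of the count, as a percent of the expected count, against the percent of a gene's read-length windows found in another gene (axis linear to 1, then log), for 34 members in replicate 1 (circles) and replicate 2 (triangles). Genes with no shared window sit at 0 on both axes, and H2-Q1 and H2-Q10 reach 10.59% to 14.1%.

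The other set of tables gave a second estimate of each level. Of 30 members with a mean TPM of at least 1, 0 were more than 2-fold higher there, against 0.976% of all genes, and 1 was more than 2-fold lower, against 4.26%. That gene was H2-Q1, at 0.472 times its gene-table TPM. In counts the Q genes were spread widely: H2-Q7 had 2.89 and 3.27 times, and H2-Q10 2.73 and 4.31 times, its gene-table count, while H2-Q2 had 1.276 and 1.012 times and H2-Q1 0.90 and 0.66 times. The median over members was 1.18 and 1.13 times, and over all genes 1.14 and 1.13 times. The summed count of H2-Q5, H2-Q6, H2-Q7 and H2-Q10 was 225.9 and 133 in the gene table and 502 and 365 in the kallisto layout. These 4 genes were lower in replicate 2 in sum by both estimates.

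Transcripts carried the levels in different ways. For members of at least 10 TPM, the share of TPM on transcripts annotated as protein-coding was above 90% in both libraries for B2m, Cd74, H2-Aa, H2-Ab1, H2-D1, H2-T23 and Tapbp. B2m has a single transcript. Cd74 was divided between Cd74-201, of 1224 bases, at 38.1 and 23.2 TPM, and Cd74-202, of 1410 bases, at 36.9 and 21.5 TPM. These transcripts kept nearly equal shares while both were lower in replicate 2. H2-D1-202 held 84.8% and 88.3% of H2-D1.

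H2-K1 and H2-Eb1 had the lowest coding shares. In H2-K1 45.3% and 53.1% of TPM lay on coding transcripts, mainly H2-K1-205 at 22.1 and 21.3 TPM and H2-K1-201 at 11.2 and 8.26 TPM. H2-K1-215, a retained-intron transcript of 457 bases, was listed at 35.1 and 24.7 TPM from 246 and 197 of the gene's 1297 and 1280 counts. TPM divides by length, so this short transcript weighs more in TPM than in counts. In H2-Eb1 8.12% and 14.4% lay on coding transcripts. H2-Eb1-205, annotated for nonsense-mediated decay, held 66.3% and 48.2%, at 10.37 and 3.69 TPM, and the coding H2-Eb1-203 and H2-Eb1-201 were at 1.27 and 0.61 TPM and at 0 and 0.49 TPM. The split is uncertain: in replicate 1 H2-Eb1-203 had 39.3 counts with a posterior SD of 17.7, and H2-Eb1-201 had 0 with one of 11.4. The kallisto-layout coding shares were close, 44.4% and 54.8% for H2-K1 and 9.81% and 19.8% for H2-Eb1. H2-DMa had 79.3% and 75.4% on coding transcripts and H2-Ke6 68.7% and 76.6%.

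**Figure D5:**
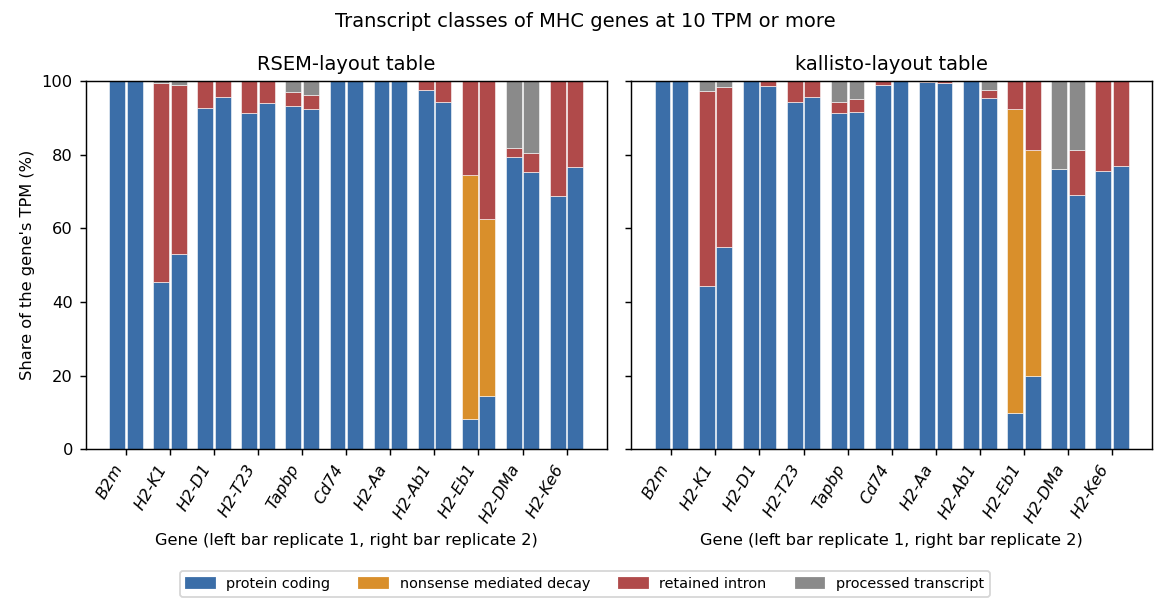
Share of each gene's TPM (percent, bars from 0) by annotated transcript class for the 11 members with a mean of at least 10 TPM, in both sets of deposited tables, with replicate 1 on the left and replicate 2 on the right of each pair. H2-K1 shows about equal coding and retained-intron shares, and H2-Eb1 shows a coding share of 8.12% and 14.4% in the RSEM-layout tables.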

How the data were processed

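Total RNA-seq of 2 hippocampal libraries was analysed as 1 group. The authors deposited, per gene and transcript and per library, expected counts with their posterior SD, and TPM, in the column layout of RSEM, and estimated counts and TPM per transcript in that of kallisto. Per the labels and the file headers, mm10 and GENCODE M21 were used. Not given in the sources used here are the aligner, the programs and versions, and the use of strand. Rows for spike-ins and rows with no gene name stayed out of library sizes.

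Expected counts were rounded to whole numbers. TMM scaling came from edgeR 4.0.16 under R 4.3.3. Ratios used CPM with a prior count of 2 at a mean count of at least 10, with 95% Clopper-Pearson intervals, which cover counting error only. With 1 group there was no hypothesis test, so shares over all genes stand beside the main counts of members. None was computed for the counts of counting intervals. Detected means that TPM reached 1 in each library. Kallisto-layout values were summed to genes. The ratio calculation was tested on simulated data. The alternatives were size factors from DESeq2 1.42.0, scaling by library size or by spike-ins, other filters and prior counts, the kallisto layout and other TPM values. Python 3.11.15, pandas 2.3.3, scipy 1.17.1 and matplotlib 3.10.9 were used.

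Members, gene lists, promoter motifs and tests were chosen with earlier results of these data known. Members with a TPM of at least 1 in either library are named with both values, and others by count with the highest named. Of the lists, the 3 genes highest in TPM, where detected, and the one with the largest ratio at 100 counts are given for lists set beside a result; neuron, astrocyte, endothelial and fibroblast lists are given by sums or their highest gene. Other list genes named were chosen after their values were seen. They are Psmb8, Psmb9, Dcn, Lum, Col1a1, Col1a2, Pdgfra, Cd209a, Xcr1, the NF-Y and RFX subunits, Ifng, Ifnb1 and marker genes at 0. One gene of the microglia list is not reported here and was left out of its sums.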

Additional observations from a re-analysis of the deposited data

How the results depend on the processing

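The count of detected members was 28, 13 at a TPM of at least 5, and 30 without either replicate. Leaving out a replicate gives no ratio between replicates. No paired analysis was possible because there is 1 group. Of the 2 members past 2-fold lower, 1 (H2-Eb1) was called at a mean count of at least 100 and 1 (H2-Eb1) on kallisto-layout counts, and 13 at 1.5-fold. By intervals wholly past 2-fold, 0 were called. Of 34 counting intervals, 18 lay below 0, and 15 to 19 under other scalings. These last 3 rules were added after seeing the data. Library size alone added H2-Aa to the 2-fold calls and a prior count of 0.5 added Ciita. With no count filter 1 member, H2-M6-ps at 2 and 7 counts, was higher by 2-fold. On kallisto-layout counts the median log2 ratio of the Q region was -0.30 in place of -0.73 and that of the exchange genes -0.077 in place of 0.11; the cause was not tested. No other role median took the other sign under the settings run. Ratios of H2-Q1, H2-DMb2, H2-Ob and H2-DMa on kallisto-layout counts, and of Tapbp and H2-DMa under library size, took the other sign. Scaling moved the median of all genes to between -0.01 and 0.07. Without mitochondrial, 7SL and 7SK genes every TPM is 1.83 and 1.80 times higher in replicates 1 and 2, which leaves the order of genes as it is. Of 32 named members, 10 moved by over 1 SD in kallisto-layout TPM and 10 in posterior mean TPM. Members under 100 counts are limited by counting error, and a level of an H2 gene whose sequence differs in CAST may be affected by the reference, which was not tested.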

Other observations

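Genes outside the H2 cluster that encode MHC-like molecules were detected in 5 of 7 cases. Fcgrt, the neonatal Fc receptor, stood at 10.59 and 10.07 TPM in replicates 1 and 2, Hfe, a regulator of iron uptake, at 4.84 and 3.25 TPM, and Mr1, which presents vitamin B metabolites, at 3.20 and 3.08 TPM. None of the 5 with a mean count of at least 10 differed by 2-fold, and their median log2 ratio was -0.09. Of 9 genes in a list of MHC receptors and related molecules, 1 was detected: Lilrb4a, an inhibitory receptor of myeloid cells that is not an established MHC receptor, at 5.14 and 4.67 TPM. The other 8 stayed below 1 TPM in both libraries. Cd4 and Cd8a, the coreceptors of T cells, had 10 and 2 counts and 13 and 1 counts. Of 6 costimulation genes, 3 were detected. Icosl stood at 5.50 and 5.31 TPM, Cd86 at 3.82 and 3.59 TPM and Cd274, which encodes PD-L1, at 2.01 TPM in both libraries, while Cd80 and Cd40 stayed below 1 TPM in both.

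In a class II processing list 8 of 8 genes were detected. It holds proteases that prepare the invariant chain and peptides for class II, besides Cd74, March1 and Ifi30. The proteases were its most abundant genes. Ctsd stood at 857 and 868 TPM, Ctsb at 348 and 346 TPM and Ctss, which cuts the invariant chain, at 287 and 260 TPM. The median log2 ratio of this list, which includes Cd74, was -0.03, and Cd74 had its lowest ratio.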
